A study of Mus musculus with 12 samples.

Results

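Prox1 is a homeodomain transcription factor gene, and its locus was taken as all rows of the deposited 5mC and 5hmC tables that carry its symbol as the nearest gene. These were 19 peaks, 11 of 55085 for 5mC and 8 of 47478 for 5hmC. The cells came from the cortex of Btg2-RFP/Tubb3-GFP double heterozygous mouse embryos at E14.5 and were sorted into proliferative progenitors (PP, lacking both reporters), differentiative progenitors (DP, with RFP but without GFP), and neurons (GFP+ whatever their RFP). All 3 cell types came from embryos with both reporter alleles, and each was defined by reporter fluorescence alone, so that any other cell type with the same fluorescence fell into the same sort. 5mC and 5hmC were mapped by MeDIP and hMeDIP, in which sheared DNA is pulled down with an antibody against the modified base. By the study's account, DNA of the 3 cell types was barcoded, pooled and pulled down together rather than apart. The 12 samples of the series are the pulled-down DNA and its untreated input for every combination of mark and cell type. The tables hold only the authors' mean over replicates for each cell type, on a log2 scale normalized between libraries. They hold no replicate values or counts, and the authors' own test columns were left aside, so that the values below have no error, test or depth, and a change of at least 1.5-fold is a description of size read against the share of all peaks that changed as much.

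PROX1 binds DNA through a divergent homeodomain and is known for the specification of lymphatic endothelium, the exit of progenitors from the cell cycle in lens and retina, and the formation of hippocampal granule cells. In the forebrain, it is found in intermediate progenitors and in interneurons of the caudal ganglionic eminence, and it can repress Notch1, the receptor that keeps progenitors from differentiating. 5mC is the methylated cytosine deposited mainly at CG dinucleotides, and 5hmC is its oxidation product made by TET enzymes, which can be an intermediate in the removal of 5mC or a lasting mark.

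Prox1 expression was highest in DP, while 9 of 11 5mC peaks and 6 of 8 5hmC peaks annotated to it stayed within 1.5-fold over the cell types, where 70.7% and 60.5% of all peaks did. Within a change of 25%, 6 of 11 and 2 of 8 stayed, but no share of all peaks was taken at this limit, so these counts have no background. A pair of peaks inside the gene body, annotated to an antisense gene, differed more and is described further on. The expression values come from earlier RNA sequencing by the authors. The tables do not name their scale, and the study plots expression as FPKM without stating that these columns are. The value was 435.2 for PP, 3023.2 for DP, and 327.8 for neurons. DP thus stood 6.95-fold above PP and 9.22-fold above neurons. Of 16293 genes in the tables, 14.4% were at least 1.5-fold higher and 18% at least 1.5-fold lower in DP than in PP, and 26.6% were higher and 26.2% lower by as much in neurons than in DP, where a gene at 0 in either was not counted as changed. Among the 16005 genes above 0 in all cell types, the rise of Prox1 exceeded that of 98.4%, and 5.09% fell more from DP to neurons. By its excess in DP over the higher of the other two cell types, Prox1 ranked 20 among these 16005 genes. It ranked 13 when taken among the 11659 genes with a mean value of at least 50. A gene at 0 in any cell type had no excess and was not ranked.

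Between PP and neurons, Prox1 differed by only 1.33-fold, with 36.1% of genes lying lower on this comparison. Its level in DP was above that of 80.6% of genes, and in PP and neurons above 49.5% and 47.0%. Only genes with a peak of either mark are in the tables, and a higher share of Prox1-positive cells cannot be told apart from more RNA per cell. The same holds for the peaks, where more alleles with the mark and more marked bases per allele give the same level.

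**Figure D1:**
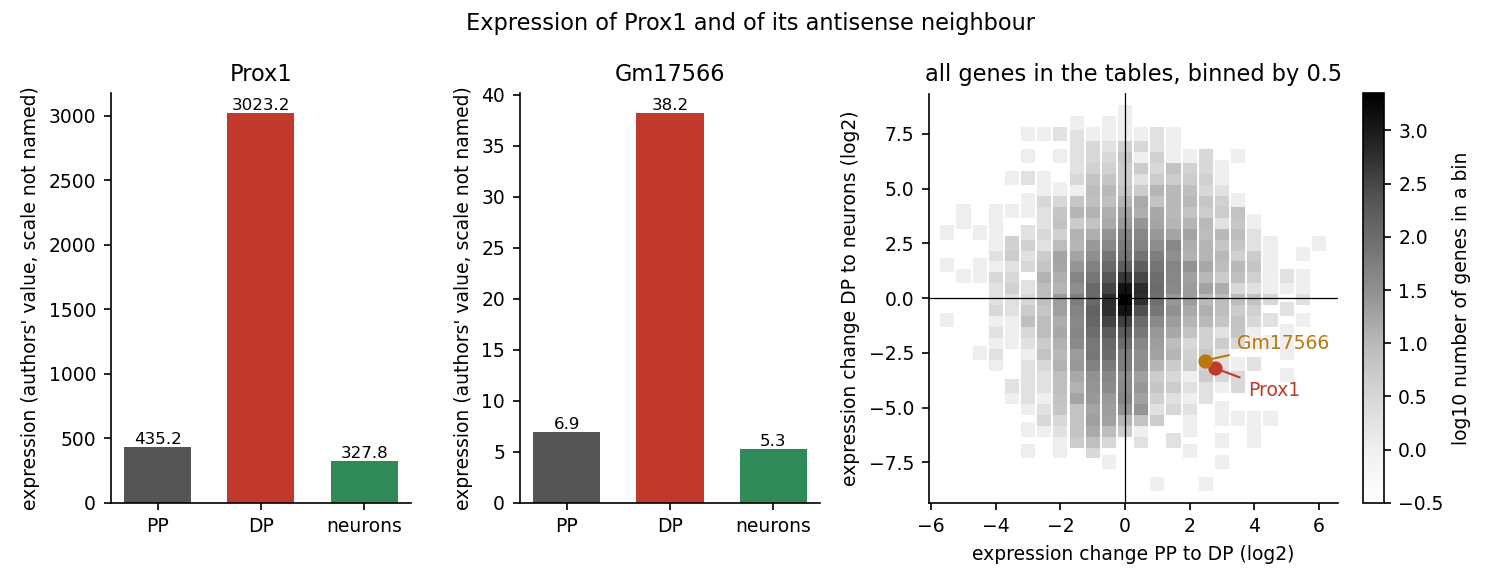
Expression of Prox1 and Gm17566 in PP, DP, and neurons (bars, authors' value on an unnamed scale, starting at 0, no error available) and, on the right, log2 expression changes of all genes in bins of 0.5 with the number of genes as grey shade on a log10 scale. Prox1 rose from 435.2 to 3023.2 and fell to 327.8, and both genes lie at the lower right, among genes with higher values in DP than in both other cell types.

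The Prox1 gene spans chr1:190118035-190170827 on the minus strand (RefSeq, GRCm38.p6, the assembly called mm10). Every one of its 19 peaks was annotated upstream of the gene, between 7288 and 109502 bp from the start site for 5mC and between 10543 and 109636 bp for 5hmC, and none inside it. This follows from the annotation to the nearest start site, as described next. A long noncoding RNA gene, Gm17566 in the tables and Prox1os in RefSeq, spans chr1:190170296-190217279 on the other strand and overlaps the first 532 bp of Prox1 head to head. Peaks inside the body of Prox1, 3 for 5mC and 2 for 5hmC, and past its end, 6 for 5mC and 7 for 5hmC, lie closer to the start of Gm17566 and carry its symbol. Of the Prox1 peaks themselves, 6 for 5mC and 1 for 5hmC lay within Prox1os, and the other 5 and 7 beyond it. Whether a peak lies in an exon or an intron was not resolved, because the annotation used gives gene bounds only.

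No peak of either mark was called near the start site, over a stretch of 15.8 kb that reached 7220 bp on the upstream side and 8597 bp into the gene. This stretch holds the promoter windows, of which the outer is shown because peaks lie on both sides of the stretch and none within it. Since the peaks had to be found in every replicate and to avoid repeats, the lack of one does not show that the marks are absent. In the 300 bases at chr1:190170778-190171077 on the minus strand (RefSeq promoter window, 250 bases before and 50 after the annotated start, GRCm38.p6), capitals mark CANNTG, the E-box bound by bHLH factors, which reads the same on both strands.
Prox1 promoter: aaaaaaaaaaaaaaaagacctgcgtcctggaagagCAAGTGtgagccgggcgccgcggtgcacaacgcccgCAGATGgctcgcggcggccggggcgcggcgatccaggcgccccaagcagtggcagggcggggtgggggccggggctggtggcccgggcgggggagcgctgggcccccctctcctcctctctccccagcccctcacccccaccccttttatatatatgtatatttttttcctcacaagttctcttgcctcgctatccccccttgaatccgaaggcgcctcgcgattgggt

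The first of 2 Prox1 windows in the table, it held 25 CG dinucleotides against a median of 7 over 27025 promoter windows and more than 81.6% of them. It held 2 matches to CANNTG, a motif found in 72.1% of promoter windows. One of them was CAGATG, searched also as its reverse complement and present in 17.2% of windows, and CAGCTG, present in 16.1%, had no match. The other window, at chr1:190169466-190169765 and also in the stretch without peaks, held 14 CG and 0 matches to CANNTG. These are matches of letters and not sites of binding. Beyond the farthest Prox1 peak, no peak followed for 422 kb, up to one of Rps6kc1.

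Prox1 was rich in peaks. A gene had a median of 3 peaks for 5mC and 2 for 5hmC, and 5.65% and 11.7% of genes had at least as many as Prox1. Of those genes, 5.42% and 9.56% had all their peaks upstream, as Prox1 did by this annotation, which gives the peaks on its other side to Gm17566. Its nearest peaks, at 7288 and 10543 bp, were farther out than the median nearest peak of a gene, which was 5663 bp for 5mC and 6355 bp for 5hmC, and 58.9% and 65.5% of genes had a nearer one.

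The 5mC level varied far more from peak to peak than from cell type to cell type. Means over the cell types spanned 3.24 on the log2 scale between the lowest and the highest Prox1 peak, while the range over cell types within a peak had a median of 0.29, against 0.41 for all 5mC peaks. In 8 of 11 peaks, this range was at or below the median of all peaks, and 9 of 11 stayed within 1.5-fold over all cell types, against 70.7% of all peaks. Levels are not divided by peak width, which ran from 107 to 232 bp for 5mC and from 124 to 212 bp for 5hmC, so that their order is one of enrichment per peak. By that order, 8 of 11 peaks were above the median of all 5mC peaks and 3 were in the top 10%.

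The 5mC peaks nearest to the start site lay within Prox1os and were high. The nearest, at chr1:190177899-190178036, had log2 levels of 6.01, 6.11, and 5.74 in PP, DP, and neurons. The next, 8316 bp upstream at chr1:190178937-190179055, was the highest of the Prox1 5mC peaks, with 7.31, 7.29, and 7.23. This peak stood above 98.2% of all 5mC peaks and hardly differed between cell types, with a range of 0.084, the smallest at the locus. The peak 29.7 kb upstream was as high in these cells, with 7.05, 7.30, and 7.30.

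A further 3 5mC peaks lay in the distal part of Prox1os. Those 36.5 and 38.1 kb upstream were of middle height, the first with 5.07, 5.10, and 4.93 and the second with 5.09, 5.31, and 4.91 in PP, DP, and neurons. The third, 46.2 kb upstream at chr1:190216806-190217038 and just inside the distal end of Prox1os, had the largest 5mC difference of all Prox1 peaks. It had 5.43 in PP, 5.67 in DP, but 4.42 in neurons, a difference of −1.25 from DP to neurons and of −1.01 from PP to neurons. Relative to the median 5mC peak, which itself fell by 0.18 from DP to neurons and by 0.17 from PP to neurons, the loss from DP to neurons was −1.07. This was the only Prox1 5mC peak that differed at least 2-fold between any cell types.

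Beyond Prox1os, the 5mC levels were again steady except at the far end. The peak 60.7 kb upstream had 6.14, 6.33, and 6.28 in PP, DP, and neurons, and that 82.8 kb upstream 5.04, 4.76, and 4.84. The peaks 98.0 and 100.5 kb upstream had 4.93, 5.07, and 4.61, and 6.73, 6.65, and 6.51. The farthest, at chr1:190280096-190280267, was also the lowest, with 4.59, 3.69, and 3.85, above 8.07% of all 5mC peaks. It was the only Prox1 5mC peak at least 1.5-fold lower in DP than in PP, by −0.90, and differed by 0.16 from DP to neurons.

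Counted over the locus, 5mC changed at few peaks. From PP to DP, 1 of 11 peaks was at least 1.5-fold lower, against 5.53% of all 5mC peaks, and none higher, against 4.51%. From DP to neurons, 1 of 11 was lower, against 15.5%, and none higher, against 2.26%. From PP to neurons, 2 of 11 were lower, against 16.3%, and none higher, against 2.12%, and after subtracting the median of all peaks, 1 remained lower. These shares lie near the background, where 1 peak of 11 more or less is the smallest step.

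Of the 11 peaks, 7 had their highest 5mC level in DP, that 29.7 kb upstream with nearly the same level in neurons, 4 in PP and none in neurons, where 41.1%, 42.6%, and 16.3% of all 5mC peaks had theirs. The median change of the Prox1 peaks was 0.097 from PP to DP, against −0.0040 for all peaks. From DP to neurons it was −0.14 against −0.18, and from PP to neurons −0.21 against −0.17. Of the 11 peaks, 9 were lower in neurons than in DP, but only 4 were lower once the median of all peaks was subtracted.

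**Figure D2:**
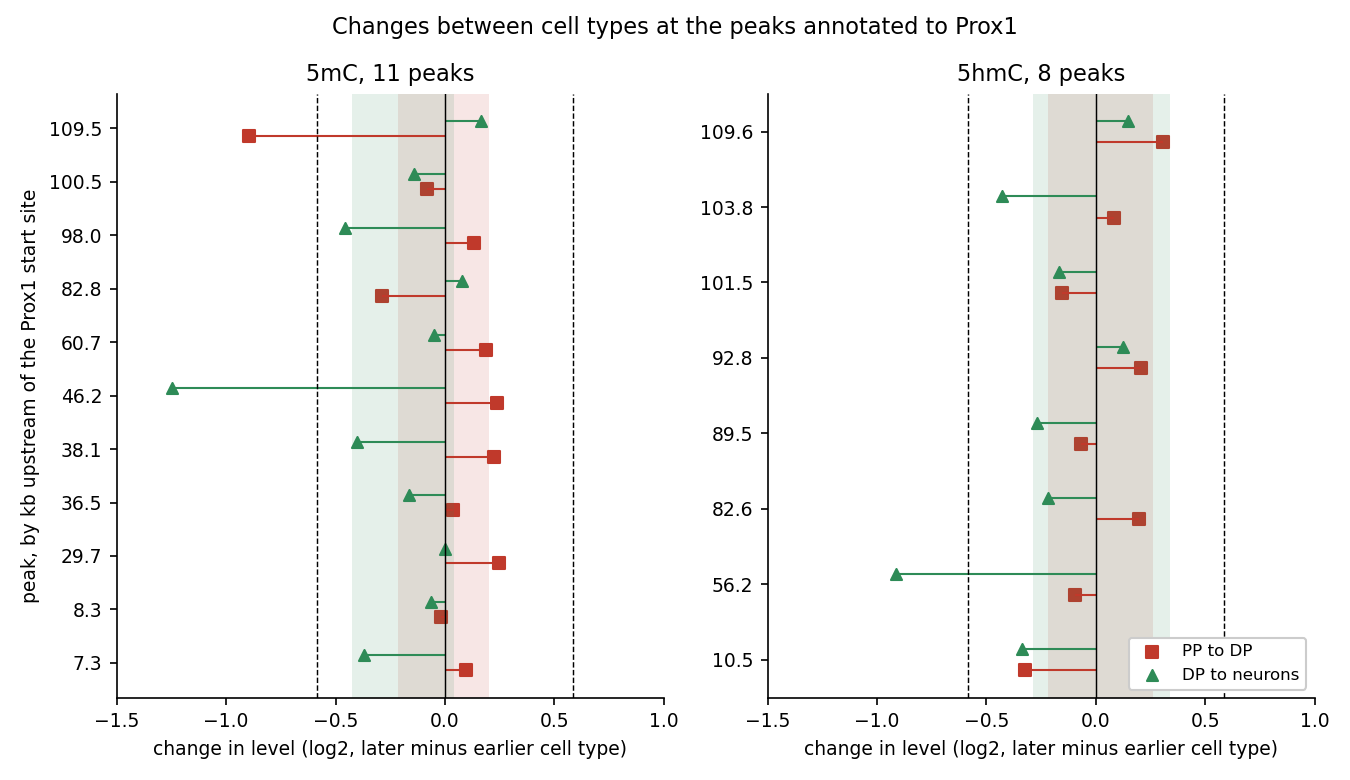
Change in 5mC (left) and 5hmC (right) level at each Prox1 peak, ordered by kb upstream of the start site, from PP to DP (red squares) and from DP to neurons (green triangles), on the log2 scale without error bars because only means exist. Shaded bands span the middle 50% of all peaks of the mark in the same colours, and dashed lines mark 1.5-fold. Only the 5mC peaks at 46.2 and 109.5 kb and the 5hmC peak at 56.2 kb pass a dashed line, all of them to the lower side.

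For 5hmC, the Prox1 peaks lay mostly in the distal part of the upstream region and were high for this mark. A single peak, 10.5 kb upstream at chr1:190181126-190181320, lay within Prox1os, and its level fell stepwise from 5.29 in PP to 4.96 in DP and 4.62 in neurons, a difference of −0.66 from PP to neurons. The peak 56.2 kb upstream at chr1:190226837-190227008 had 5.08, 4.98, and 4.07. It was the only Prox1 5hmC peak to differ at least 2-fold between cell types, by −1.01 from PP to neurons, of which −0.91 fell between DP and neurons.

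The remaining 6 peaks formed a cluster between 82.6 and 109.6 kb upstream. It contained the highest one, 103.8 kb upstream at chr1:190274387-190274511, with 8.0 in PP, 8.08 in DP, and 7.65 in neurons, above 99.9% of all 5hmC peaks. It also contained the lowest, 92.8 kb upstream at chr1:190263352-190263553, with 3.95, 4.15, and 4.27, above 15.0% of them. The peaks next to these stood between, at 6.57, 6.51, and 6.24 for that 89.5 kb upstream and 6.50, 6.35, and 6.18 for that 101.5 kb upstream. The last pair, 82.6 and 109.6 kb upstream, overlapped 5mC peaks and is described with them.

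As for 5mC, peaks differed from each other more than cell types did. Mean 5hmC levels spanned 3.79 between peaks, whereas the range over cell types within a peak had a median of 0.38 against 0.49 for all 5hmC peaks, and 6 of 8 peaks stayed within 1.5-fold, against 60.5% of all. Of the 8 peaks, 7 were above the median of all 5hmC peaks and 4 in the top 10%. Between PP and neurons, Spearman's rho was 0.98 over the 8 peaks for 5hmC, against 0.55 over all 5hmC peaks, and 0.89 over the 11 peaks for 5mC, against 0.86 over all 5mC peaks. The peaks share libraries, and each has the same width and bases in every cell type.

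No Prox1 peak gained 5hmC by 1.5-fold at any step, where 11.1% of all 5hmC peaks did from PP to DP, 15.8% from DP to neurons, and 20.2% from PP to neurons. With 8 peaks, the background shares correspond to 1 or 2 peaks. In the other direction, none was at least 1.5-fold lower from PP to DP, against 4.74% of all peaks, 1 from DP to neurons, against 7.8%, and 2 from PP to neurons, against 10.8%, of which 1 remained after subtracting the median of all peaks. These 8 peaks had a median change of 0.0086 from PP to DP, against −0.0035 for all peaks, −0.24 from DP to neurons, against −0.023, and −0.33 from PP to neurons, against −0.081. From DP to neurons, 6 of 8 peaks were lower and 2 higher. The counts were the same after subtracting the median of all peaks, below and above which all peaks lie in equal number.

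**Figure D3:**
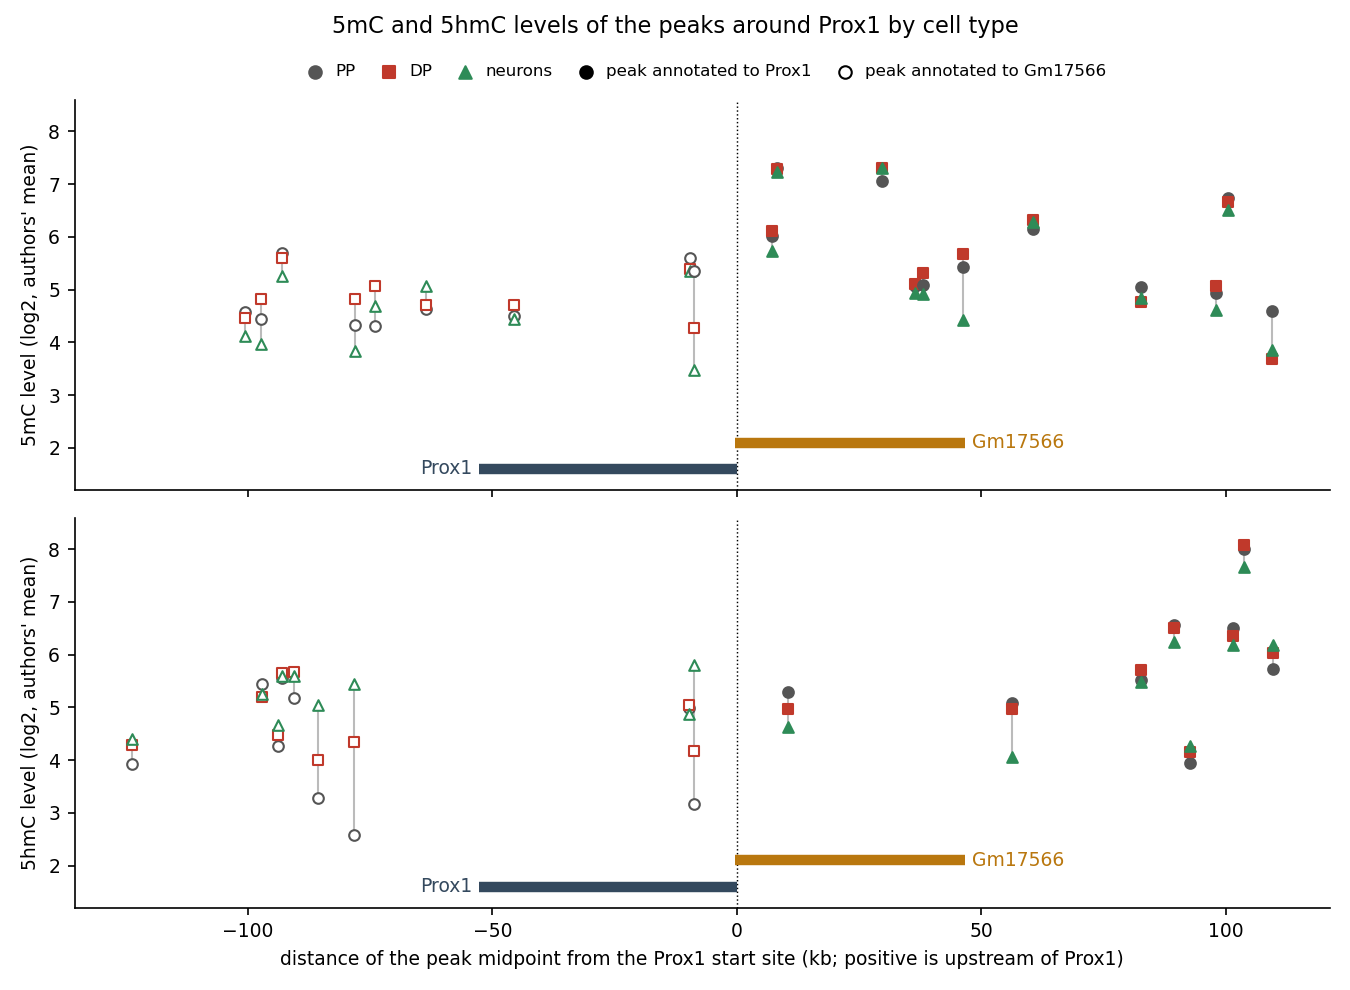
Log2 level (authors' mean, no error available) of 5mC (top) and 5hmC (bottom) in PP (grey circles), DP (red squares), and neurons (green triangles) against the distance of each peak from the Prox1 start site in kb, positive upstream, with grey lines joining the cell types of a peak and bars for the 2 genes. Filled symbols are peaks annotated to Prox1 and open ones peaks annotated to Gm17566; the cell types lie close together at most filled peaks and spread widely at 3 of the open 5hmC peaks.

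At 2 places upstream of Prox1, a 5mC and a 5hmC peak overlapped. Those at 82.8 and 82.6 kb, which shared 83 bp, had 5mC levels of 5.04, 4.76, and 4.84 and 5hmC levels of 5.51, 5.71, and 5.49 in PP, DP, and neurons. Those at the far end, which shared 45 bp, had 5mC levels of 4.59, 3.69, and 3.85 and 5hmC levels of 5.73, 6.03, and 6.18. At the latter, 5mC was lower and 5hmC higher in DP and in neurons than in PP, but only the 5mC difference from PP to DP passed 1.5-fold, and the 5hmC difference from PP to neurons was 0.45. Of 6727 overlapping pairs in the tables, 22.4% were at least 1.5-fold lower for 5mC and higher for 5hmC in neurons than in PP, and neither of the 2 Prox1 pairs was.

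The peaks that carry the symbol Gm17566 lie on the other side of the start site, within and past the body of Prox1, and were examined after their values had been seen. They were 9 for 5mC and 9 for 5hmC, which brings the region to 37 peaks. The largest opposite change of both marks in the region was here, 8.7 kb inside Prox1. The 5mC peak at chr1:190161936-190162078 fell stepwise from 5.36 in PP to 4.28 in DP and 3.47 in neurons. The 5hmC peak at chr1:190161974-190162082, which shared 104 bp with it, rose from 3.17 to 4.17 and 5.81. From PP to neurons, this was −1.89 for 5mC and 2.64 for 5hmC on the log2 scale.

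The study placed a bisulfite amplicon over this site, at chr1:190161836-190162108, which contains 142 bp of the 5mC peak and 108 bp of the 5hmC peak. It counted Prox1 among genes near a region that loses 5mC and gains 5hmC in DP. Bisulfite and oxidative bisulfite sequencing of selected regions of this kind matched the MeDIP and hMeDIP levels, as the study reports. Its primer list does not say whether this amplicon was one of them. The primers of the amplicon are shown because they delimit the place where 5mC fell most while 5hmC rose. They are written for bisulfite-converted DNA, and no bases are in capitals.
Forward primer: gggttgttttttgaagagttgttatatata
Reverse primer: ccccaaaattcaaaacaaaatatta

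A second place, 78.1 kb beyond the start site and past the end of Prox1, differed in the same directions only in part. Its 5hmC peak rose from 2.58 in PP to 4.35 in DP and 5.45 in neurons, and its 5mC peak, which shared 69 bp with it, had 4.32, 4.82, and 3.83. The 5hmC peak 85.6 kb beyond the start site rose as well, from 3.28 to 4.00 and 5.04, and had no 5mC peak over it.

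Side by side, the 2 groups of peaks had unlike values for 5hmC. Among the Gm17566 peaks, 3 of 9 were at least 1.5-fold higher for 5hmC at each step, against the background shares of 11.1% and 15.8% given above. They were the same 3 peaks at both steps and from PP to neurons, where the background was 20.2%, so these counts are not separate results. The median 5hmC change from PP to neurons was 0.40, against −0.33 for the Prox1 peaks. For 5mC, 1 of 9 was higher and 1 lower from PP to DP, against 4.51% and 5.53% of all 5mC peaks. From DP to neurons, 3 of 9 were lower, against 15.5%. The median 5mC change from PP to neurons was −0.44, against −0.21 for the Prox1 peaks and −0.17 for all peaks. Of 4 overlapping pairs of Gm17566, 1 was lower for 5mC and higher for 5hmC by 1.5-fold from PP to neurons, that inside Prox1. This is near the share of 22.4% over all overlapping pairs. The difference between the groups could not be tested, since the tables hold no replicates and the peaks of a group share libraries and locus.

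**Figure D4:**
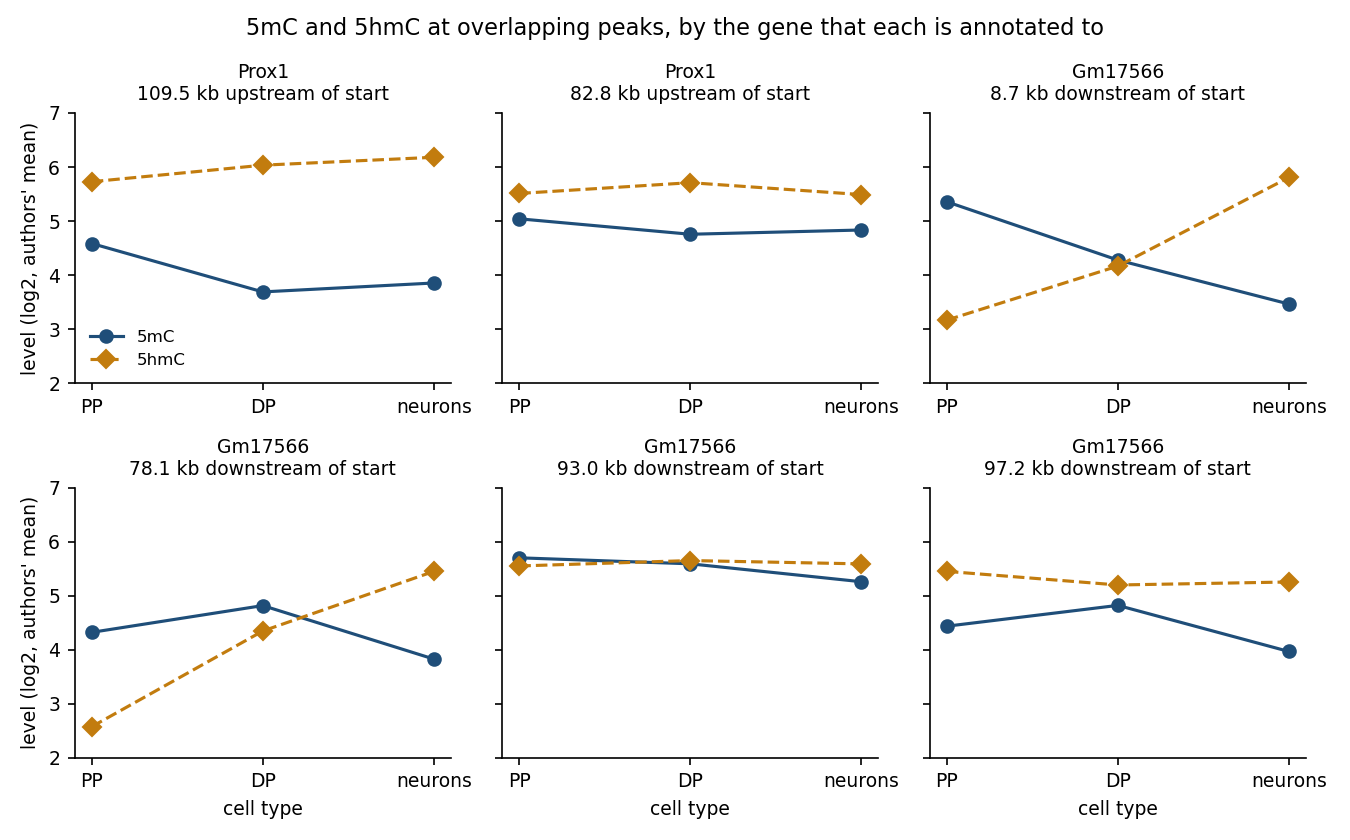
Log2 level (authors' mean, no error available) of 5mC (blue circles, solid line) and 5hmC (orange diamonds, dashed line) in PP, DP, and neurons at the 6 places near Prox1 where a peak of each mark overlaps, headed by the annotated gene and the distance of the 5mC peak from the Prox1 start site. From PP to neurons, 5hmC rises by 2.64 at 8.7 kb and by 2.87 at 78.1 kb downstream of the start, and neither mark changes by as much at the other 4 places; heights are not comparable between the marks.

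Gm17566 followed the expression pattern of Prox1 at a much lower value. It had 6.9 in PP, 38.2 in DP, and 5.3 in neurons, that is 5.54-fold higher in DP than in PP and 7.21-fold higher than in neurons. The 2 genes overlap at their starts, and the sources used here do not state whether the RNA was counted by strand, so that reads of one and the other there cannot be told apart.

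Other genes with a peak of expression in DP can be set beside Prox1. Among genes above 0 in all cell types, 67 were at least 4-fold higher in DP than in both other cell types. They were led by Neurod4, a proneural bHLH factor with a log2 excess of 3.97, and the Wnt ligands Wnt3a with 3.82 and Wnt8b with 3.81, against 2.80 for Prox1. Over the 343 5mC peaks of these 67 genes, Prox1 included, the median was −0.016 for the step from PP to DP and −0.22 for the next. Over their 344 5hmC peaks, it was 0.0044 and −0.032. These medians lie close to those of all peaks, as did the Prox1 medians for 5mC.

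Likeness to Prox1 was taken over 6 values, the mean change of 5mC, of 5hmC and of log2 expression at both steps, among 4224 genes with at least 3 peaks of each mark. For Prox1, the mean changes were −0.011 and −0.24 for 5mC and 0.019 and −0.26 for 5hmC, so that expression, with 2.80 and −3.21, weighed most. The nearest gene was Dmrt1, a transcription factor of gonad development, at a distance of 0.23 against a median of 4.44, with expression values of 7, 47, and 4.9 in PP, DP, and neurons. It was followed by Trp63, a transcription factor of epithelial stem cells, at 0.66, Gm16564 at 0.67, Tmem132c at 0.71, and Kcnk13, a potassium channel, at 0.75. Of these 5, only Tmem132c reached an expression value near that of Prox1, with 385.7, 2398.5, and 407.4.

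The genes tied to Prox1 by its known roles moved in several directions. Of a list of 15, 12 were in the tables. In DP against PP, 6 of them were at least 1.5-fold higher and 4 lower, beside 14.4% and 18% of all genes. In neurons against DP, 2 were higher and 7 lower, beside 26.6% and 26.2% of all genes. The median changes of the list were 0.70 and −2.34, against −0.017 and 0.0091 for all genes. Notch1 fell at both steps, from 62846.2 in PP to 41682.2 in DP and 1060.3 in neurons. Its targets Hes1 and Hes5, which repress proneural genes, were lower by −0.93 and −0.57 in DP than in PP, the latter just short of 1.5-fold, and by −6.47 and −6.41 in neurons than in DP.

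Neurog2, Eomes, Dll1, and Cdkn1b on the list were highest in DP, as Prox1 was, Cdkn1b by less than 1.5-fold over either other cell type. Neurog2, a proneural bHLH factor, had values of 15976.3, 32860.8, and 2440.5 in PP, DP, and neurons, and Eomes, the T-box factor that marks intermediate progenitors, 10187.6, 50496.7, and 3626.3. The 3 5hmC peaks of Eomes had median changes of 1.81 at the step to DP and 1.15 at that to neurons, and the 1 5hmC peak of Neurog2 changed by −0.12 and 0.21, where the Prox1 medians were 0.0086 and −0.24. Dll1, the Notch ligand, had 8062, 17642.8, and 9312.

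Among the cell cycle genes, Cdkn1c, an inhibitor of cyclin-dependent kinases, rose 3.52 on the log2 scale from PP to DP and changed by 0.097 from DP to neurons. Cdkn1b, a related inhibitor, changed by 0.36 and −0.51, within 1.5-fold at both steps, and Ccnd1, the cyclin of early G1, by −0.87 and −4.65. Nr2f2, a nuclear receptor that partners with PROX1 in lymphatic endothelium, had 1084.8, 2921.5, and 4306.8 in PP, DP, and neurons. Neurod2, a bHLH factor of young neurons, had 1454.7, 14644.5, and 44141.2, and Calb1, found in granule cells, 2.6, 0.6, and 104.9. Neurod1, Hdac3, and Prox2 were not in the tables.

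The flanking genes listed beside Gm17566 did not rise in DP by as much as Prox1. None of Smyd2, Rps6kc1, Ptpn14, and Cenpf changed by 1.5-fold from PP to DP, and their log2 changes at this step ran from −0.36 for Smyd2 to 0.39 for Cenpf. From DP to neurons, 1 was higher, Smyd2 by 1.09, and 2 were lower, Ptpn14 by −3.17 and Cenpf by −4.75. Among all genes, 14.4% were higher and 18% lower by 1.5-fold at the first step, and 26.6% and 26.2% at the second. With 4 genes, 1 gene more or less is the smallest step, and the counts lie near these shares.

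In the earlier RNA sequencing, most listed markers of PP, DP, and neurons changed in the direction that the names imply. Btg2 and Tubb3, whose reporters were used for sorting, are on these lists, so that their order follows in part from the sort. The values are from an earlier study and not from the samples of this series. Of the listed PP markers, 8 of 9 were in the tables, of which 6 were at least 1.5-fold lower in DP than in PP and all 8 lower in neurons than in DP. All 7 DP markers in the tables, of 8, were higher in DP than in PP, and 6 lower in neurons than in DP. Of 8 neuronal markers in the tables, of 10, all were higher in DP than in PP and 7 higher again in neurons. Of all genes, 14.4% were at least 1.5-fold higher and 18% lower in DP than in PP. From DP to neurons, 26.6% were higher and 26.2% lower.

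Other cell types, some of which can express Prox1, were looked for by their markers. The summed value of 9 markers of GABAergic interneurons in the tables, of 12, came to 9895.6, 12023.2, and 18590.9 in PP, DP, and neurons. At 1.5-fold, 6 were higher and 1 lower in DP than in PP, beside 14.4% and 18% of all genes. In neurons against DP, 5 were higher and 2 lower, beside 26.6% and 26.2% of all genes. Within this list, Gad1, the enzyme that makes GABA, had 32.3, 41.9, and 3055.2. The 5 of 6 markers of Cajal-Retzius cells summed to 215.2, 1906.2, and 37393.7. All 5 were at least 1.5-fold higher in DP than in PP, and 4 were higher and 1 lower in neurons than in DP, beside the same shares. Both sums were highest in neurons, while Htr3a of the first list and Ebf2 of the second were highest in DP, with 45.7, 121.5, and 72.8 and with 21.8, 386.1, and 152.2.

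Markers of blood and lymphatic vessels and of microglia had low values. The 6 endothelial markers summed to 453.1, 354, and 106.1 in PP, DP, and neurons. By at least 1.5-fold, 5 were lower and none higher in DP than in PP, beside 18% and 14.4% of all genes. In neurons against DP, 4 were lower and 1 higher, beside 26.2% and 26.6% of all genes. Of the 6 markers, Lyve1, a marker of lymphatic endothelium, had 5.5, 0.3, and 3.9. The 2 of 3 microglial markers in the tables summed to 309.1, 188.8, and 74.9. Of these 2, 1 was at least 1.5-fold lower in DP than in PP and both were lower in neurons than in DP, beside the same shares. Both sums were highest in PP, while Kdr, an endothelial receptor, was highest in DP, with 195.3, 265.6, and 56.2. The part of these cells in the levels of the peaks was not tested.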

How the data were processed

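The 12 samples, 6 IP and 6 input, cover 3 cell types and both marks. For 3 biological replicates per cell type, which the labels do not separate, the authors aligned reads to mm10 with BWA 0.7.8-r455, used SICER 1.1 to call peaks, kept those present in every replicate of a cell type, merged these, dropped peaks over repeats, and annotated them to the nearest start site with HOMER 4.7. The submitters' processing notes also name bcl2fastq 1.8.4 and deepTools 2.2. The deposited levels are log2 means per cell type of reads normalized by TMM in DiffBind. The expression columns hold a score per cell type, of a scale not named in the tables, that the authors took from earlier RNA sequencing, and the deposited distance is in bp. The tables also hold fold changes, p-values and q-values of the authors' own comparisons, which were not used. They hold no counts, inputs or replicates, so the depth is unknown from them and no test was made.

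Differences are later minus earlier cell type, a change is at least 1.5-fold (0.58 on the log2 scale), and peaks of both marks sharing 1 bp or more, counted as the end minus the start, formed a pair. Shares called are over all rows of a table, without a filter. Genes above 0 in all cell types entered expression changes, without a pseudocount, and shares of changed genes are over all genes in the tables. Prox1 and its lists were chosen with earlier results of these data known. By a fixed rule, the Prox1 peaks that overlap the other mark, differ 2-fold, lie nearest or are highest or lowest were to be given with all levels, with the other peaks by range and count; the others are given in full as well. The rule also named the 5 nearest genes by Euclidean distance and fixed the lists of linked, neighbouring and marker genes; 1 linked gene is not reported here and was left out of the counts and medians of its list. Gene bounds and promoter windows are from RefSeq tables of GRCm38.p6. The sequence of the peaks was not analysed here. Steps were tested on simulated data and run in python 3.11.15 with numpy 2.4.6, pandas 2.3.3, and matplotlib 3.10.9.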

Additional observations from a re-analysis of the deposited data

How the results depend on the processing

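Of 104 values recomputed under an alternative, 76 stayed within the limits set for a change and 28 moved. Limits come first from the tables: they hold means only, so that leaving out a replicate has no value, and no SE, interval or depth can be attached to a level. No paired analysis was possible because the tables hold no values per replicate. With 11 and 8 peaks, 1 peak moves a count by a large share. Restricting to peaks inside the gene gave no value, since 0 Prox1 peaks lie there. Adding 1 before the log2 of expression, a mean expression of at least 50, and a gap of up to 250 bp moved no value. A highest level of at least 4 was met by all 11 and 8 Prox1 peaks. Its 18 values, counted among the 76, were therefore bound to stay and say nothing of robustness.

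At 2-fold, the counts of lower peaks became 0 for 5mC from PP to DP, 1 for 5mC from PP to neurons, 0 for 5hmC from DP to neurons and 1 for 5hmC from PP to neurons. At a change of at least 25%, lower peaks became 4 for 5mC from DP to neurons. For 5hmC, they became 1 from PP to DP, 3 from DP to neurons and 4 from PP to neurons, with 2 higher from PP to neurons. No share of all peaks was taken at 2-fold or at 25%, so these counts have no background. With the median of all peaks subtracted, the median 5mC change became 0.034 from DP to neurons, a change of sign, and −0.036 from PP to neurons, and lower peaks from PP to neurons became 1 for each mark. Within 100 kb of the start site, lower 5mC peaks became 0 from PP to DP and 1 from PP to neurons, because the farthest peak is left out, and the median 5hmC change from PP to DP became −0.066, a change of sign.

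With the Gm17566 peaks counted in, an alternative chosen after seeing the data, 5mC had 1 higher and 2 lower peaks from PP to DP, 4 lower from DP to neurons and a median of −0.30 at that step. For 5hmC, the same 3 peaks were higher at each step and from PP to neurons. The 5hmC medians became 0.20 from PP to DP, −0.062 from DP to neurons and 0.038 from PP to neurons, the last a change of sign. Shared places became 6. For the Prox1 peaks alone, shared places became 0 when 50% of the shorter peak had to overlap. By Pearson correlation, 2 of the 5 most similar genes were shared.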
